A study of Mus musculus with 11 samples.

Results

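Zfp970, Gm14403, Gm14305, Gm14399 and Gm14295 are 5 protein-coding zinc finger genes of a cluster at the far end of mouse chromosome 2, a region whose annotated genes reach from chr2:175010241 to chr2:177982700 in the build GRCm38. They were listed with the genotype differences of these same libraries in view: they are the genes of that region that were called lower in Morc2a p.S87L libraries in both tissues measured. Their genotype values are therefore given as a description, without a test. They make up 5 of the 84 annotated genes of the region and 5 of the 55487 gene identifiers in the expression table.

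RNA was sequenced from whole spinal cord and from cultured mouse fetal fibroblasts (MEF) of C57BL/6 mice. The mice were wild-type or were heterozygous for Morc2a p.S87L, which replaces a serine of the chromatin ATPase MORC2A by leucine. There were 3 libraries each of wild-type cord, S87L cord and wild-type MEF, and 2 of S87L MEF. No group carried another allele or a treatment per the labels. Whether each library is its own animal or culture is not said in the labels, so p-values measure the variation among these libraries only, and part of it may be technical.

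Zinc finger proteins of this kind bind DNA through tandem C2H2 fingers, each a short loop held by a zinc ion between 2 cysteines and 2 histidines. Many mouse zinc finger proteins also carry a KRAB domain, which recruits the corepressor TRIM28 and the histone methyltransferase SETDB1 and so places the repressive mark H3K9me3, often on transposable elements. Their genes arose by repeated local duplication, sit in clusters of near-identical copies and are often covered by H3K9me3 themselves. MORC2A works with the HUSH complex, which maintains that mark.

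Zfp970 (ENSMUSG00000078866) lies at chr2:177464733-177478129 on the plus strand, and Gm14403 (ENSMUSG00000094786) at chr2:177498215-177509763 on the same strand, 20.1 kb downstream. Gm14305 (ENSMUSG00000078878, chr2:176708328-176721813) and Gm14295 (ENSMUSG00000078877, chr2:176798612-176811223) are also on the plus strand, 76.8 kb apart. Gm14399 (ENSMUSG00000090093, chr2:175129493-175142012) is on the minus strand and stands farthest away, so that the 5 genes span 2.38 Mb. The longest annotated coding sequence held 14 C2H2 finger patterns in Zfp970, 9 in Gm14403, 14 in Gm14305, 18 in Gm14399 and 25 in Gm14295. Over their aligned parts the coding sequences of the other 4 were 87.7% to 88.5% identical to that of Zfp970.

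The genes also resemble each other just upstream of their starts, which is shown here because the 5 genes are described together. RefSeq (GRCm38.p6) gave a window from 250 bases before to 50 bases after the start for Zfp970, Gm14403, Gm14305 and Gm14295, 4 of the 5. Pairs of these 300-base windows were 94.5% to 99.3% identical over 253 to 288 aligned bases, and all 4 hold the same unbroken run of 59 bases, set in capitals below. The 250 bases before the start are printed 5′ to 3′ for Zfp970 (chr2:177464492-177464741, plus), Gm14403 (chr2:177497976-177498225, plus) and Gm14305 (chr2:176708103-176708352, plus). Gm14325 (chr2:177840337-177840586, minus) is printed beside them because it holds the same run and was not called in either tissue.
Zfp970: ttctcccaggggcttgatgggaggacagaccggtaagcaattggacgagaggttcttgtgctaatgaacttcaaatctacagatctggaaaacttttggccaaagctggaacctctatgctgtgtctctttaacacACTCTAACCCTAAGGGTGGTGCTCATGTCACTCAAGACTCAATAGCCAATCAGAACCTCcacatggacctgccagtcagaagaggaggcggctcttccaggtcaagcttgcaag
Gm14403: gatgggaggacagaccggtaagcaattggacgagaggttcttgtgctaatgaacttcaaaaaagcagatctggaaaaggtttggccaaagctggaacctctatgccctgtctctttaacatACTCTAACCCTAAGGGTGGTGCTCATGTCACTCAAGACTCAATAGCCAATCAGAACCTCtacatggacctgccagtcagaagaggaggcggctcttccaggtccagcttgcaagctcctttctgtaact
Gm14305: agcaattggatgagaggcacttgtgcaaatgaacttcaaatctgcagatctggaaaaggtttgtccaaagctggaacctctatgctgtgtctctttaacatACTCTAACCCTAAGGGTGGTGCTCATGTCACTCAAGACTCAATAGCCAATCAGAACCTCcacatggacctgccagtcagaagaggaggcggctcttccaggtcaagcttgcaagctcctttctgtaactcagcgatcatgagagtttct
Gm14325: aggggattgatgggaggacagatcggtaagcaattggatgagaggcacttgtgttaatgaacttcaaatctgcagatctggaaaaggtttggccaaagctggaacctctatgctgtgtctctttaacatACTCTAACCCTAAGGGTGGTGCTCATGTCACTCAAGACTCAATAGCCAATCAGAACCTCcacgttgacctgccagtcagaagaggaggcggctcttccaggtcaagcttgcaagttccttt

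The 59-base run occurred in 26 of 32851 RefSeq windows (0.0791%), which belong to 22 genes, all of them in the region or at its edge, where Zfp971 lies. Of these 22 genes, 15 had a mean below 0.5 FPKM in wild-type cord, and 7 were tested there. Besides the 4 described genes, the tested holders were Gm14322, Gm14325 and Zfp971, while the windows of Gm14410, Gm14326 and Zfp931 lack it at 94.5% to 95.4% identity to the Zfp970 window. Gm14440, whose window is 99.6% identical to that of Zfp970, was listed at a mean of 0.0432 FPKM in wild-type cord. However, 100% of the 100-base stretches of its transcripts also occur in transcripts of other genes. Its reads cannot be assigned to it by sequence, and the listed value does not show that it is silent. The letters CCAAT, searched on both strands (ATTGG on the other), were found in all 4 windows, within the shared run, and in 37.4% of all windows. TATAAA was in none of the 4 and in 13.6% of all windows, and GGGCGG in none of the 4 and in 35.7% of all windows. Such matches describe letters and not binding sites.

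Levels are in FPKM, fragments per kilobase of gene scaled to the library's reads, which allows genes of different length to be set side by side. In wild-type cord Zfp970 stood at 7.35 ± 0.711 (SD, n = 3), Gm14403 at 6.68 ± 0.792 and Gm14305 at 6.46 ± 0.943, and these 3 did not differ beyond their spread. Gm14399 at 2.91 ± 0.295 and Gm14295 at 2.46 ± 0.478 followed, again within their spread of each other. In S87L cord the order was Gm14305 (4.38 ± 0.520), Zfp970 (2.65 ± 0.432), Gm14403 (2.16 ± 0.168), Gm14399 (1.57 ± 0.108) and Gm14295 (1.32 ± 0.0576). Gm14305 thus moved from the third to the first place, and Zfp970 and Gm14403 stood below it.

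Zfp970, the most abundant of the 5 in wild-type cord, was at 6.53, 7.84 and 7.67 FPKM in the 3 wild-type cord libraries and at 2.46, 3.14 and 2.34 in the 3 S87L cord libraries. In MEF it was at 1.79, 1.86 and 2.18 in wild-type and at 0.567 and 0.561 in S87L libraries. The groups did not overlap in either tissue, and the highest S87L cord library lay well under the lowest wild-type one. The difference, on the log2(FPKM + 0.5) scale used throughout, was -1.32 (SE 0.11) in cord and -1.19 (SE 0.11) in MEF. That scale understates the change of low genes. The reads behind the values were 355 in S87L cord against 753 in wild-type cord. Relative to the read total implied by the FPKM values, the S87L level was 36.7% of wild-type (95% exact interval 32.3% to 41.7%). In MEF, 31 reads against 176 gave 29.0% (19.1% to 42.7%). These intervals cover counting error only, since reads copied by PCR are not independent molecules. In whole tissue, fewer cells of a type and less RNA per cell cannot be told apart.

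Gm14403, the downstream neighbour of Zfp970, was at 5.80, 6.90 and 7.34 FPKM in wild-type cord and at 2.15, 2.34 and 2.01 in S87L cord. Wild-type MEF libraries had 0.796, 1.33 and 1.47 FPKM and S87L MEF libraries had 0.0875 and 0.0526, the latter from 2 reads and 1 read. Again no S87L library reached the lowest wild-type library of its tissue. The difference was -1.43 (SE 0.09) in cord and -1.55 (SE 0.21) in MEF. Relative to the read total, S87L cord stood at 32.9% of wild-type (28.0% to 38.6%), close to Zfp970. S87L MEF stood at 5.96% (1.20% to 18.0%) on the same measure. With 3 reads against 83, the MEF value of Gm14403 rests on few reads.

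Gm14295, the member with the most fingers, was at 2.10, 2.28 and 3.00 FPKM in wild-type cord and at 1.27, 1.31 and 1.38 in S87L cord. In MEF it was at 1.20, 1.04 and 1.40 in wild-type and at 0.164 and 0.0988 in S87L libraries. The groups were apart in both tissues, and the S87L values lay nearer to 0 in MEF than in cord. The difference was -0.69 (SE 0.11) in cord and -1.44 (SE 0.15) in MEF. Scaled to the read total, S87L was 54.2% of wild-type in cord (46.4% to 63.2%) and 11% in MEF (5.60% to 19.8%). The MEF value came from 12 reads against 179. Whether the genotype difference itself differs between the tissues was not tested for these 5 genes, because they were chosen on those differences.

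Gm14305, which overlaps the gene model of Zfp973 on the genome, showed the smallest difference in cord, with 5.39, 7.16 and 6.83 FPKM in wild-type and 4.33, 3.89 and 4.93 in S87L libraries. In MEF it was at 1.87, 2.02 and 1.61 in wild-type and at 0.696 and 0.906 in S87L libraries. The groups did not overlap, although in cord the highest S87L and the lowest wild-type library were near each other. The difference was -0.51 (SE 0.12) in cord and -0.85 (SE 0.13) in MEF. S87L reads, scaled to the read total, came to 68.1% of wild-type in cord (61.3% to 75.7%) and 43.1% in MEF (30.9% to 59.2%).

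Gm14399, the distant gene on the minus strand, was at 2.57, 3.09 and 3.07 FPKM in wild-type cord and at 1.65, 1.44 and 1.61 in S87L cord. In MEF it was at 0.915, 0.773 and 1.09 in wild-type and at 0.453 and 0.306 in S87L libraries. Both tissues showed separate groups. The difference was -0.72 (SE 0.08) in cord and -0.70 (SE 0.16) in MEF, on a scale that understates the change at the lower MEF level. S87L reads, scaled to the read total, were 54.1% of wild-type in cord (45.8% to 63.9%) and 41.6% in MEF (25.7% to 65.1%).

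**Figure D1:**
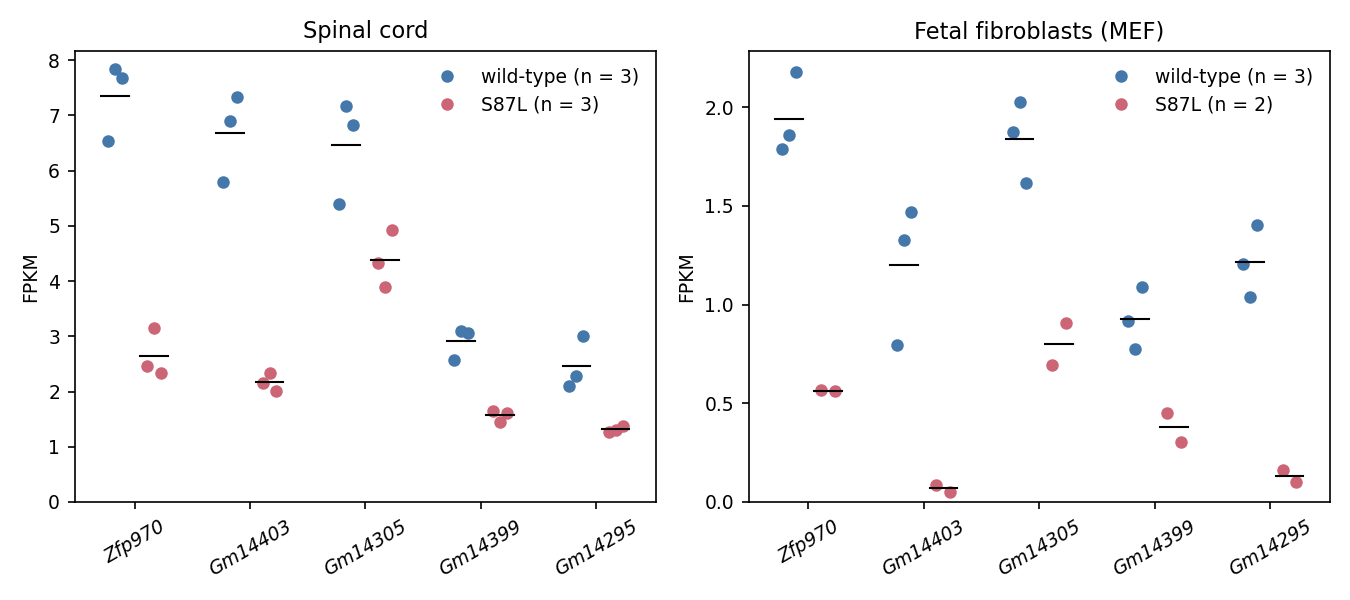
FPKM of the 5 genes in each of the 11 libraries, by tissue and genotype (points are libraries, lines are group means). In every panel the S87L libraries lie below all wild-type libraries of the same tissue, for Zfp970 between 2.34 and 3.14 against 6.53 to 7.84 in cord.

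All 5 genes were called lower in S87L at an adjusted p under 0.05 in both tissues, which is how they came to be listed, so nothing is read from this count. Leaving out replicate 2 or 3 of wild-type or replicate 1 or 2 of S87L cord ended the call of Gm14305 in cord. Leaving out any 1 MEF library ended that of Gm14399 in MEF, and without replicate 1 of S87L MEF that of Gm14305 was lost there too. Of all genes tested, 7.75% of 15630 were called lower in cord and 6.32% of 13762 in MEF. Groups that do not overlap with S87L lower were found for 21.3% of tested genes in cord and 25% in MEF. Ordered from the most negative difference among all genes tested in cord, Gm14403 was at place 76, Zfp970 at 92, Gm14399 at 283, Gm14295 at 307 and Gm14305 at 496. In MEF the places were 25 for Gm14403, 42 for Gm14295, 74 for Zfp970, 176 for Gm14305 and 267 for Gm14399. Gm14403 thus stood first among the 5 in both tissues, while Gm14295 stood higher in MEF than in cord. The median difference was -0.72 over the 5 genes and -0.02 over all tested genes in cord, and -1.19 and -0.01 in MEF. High places and negative medians follow from the same choice of genes and are a description only.

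**Figure D2:**
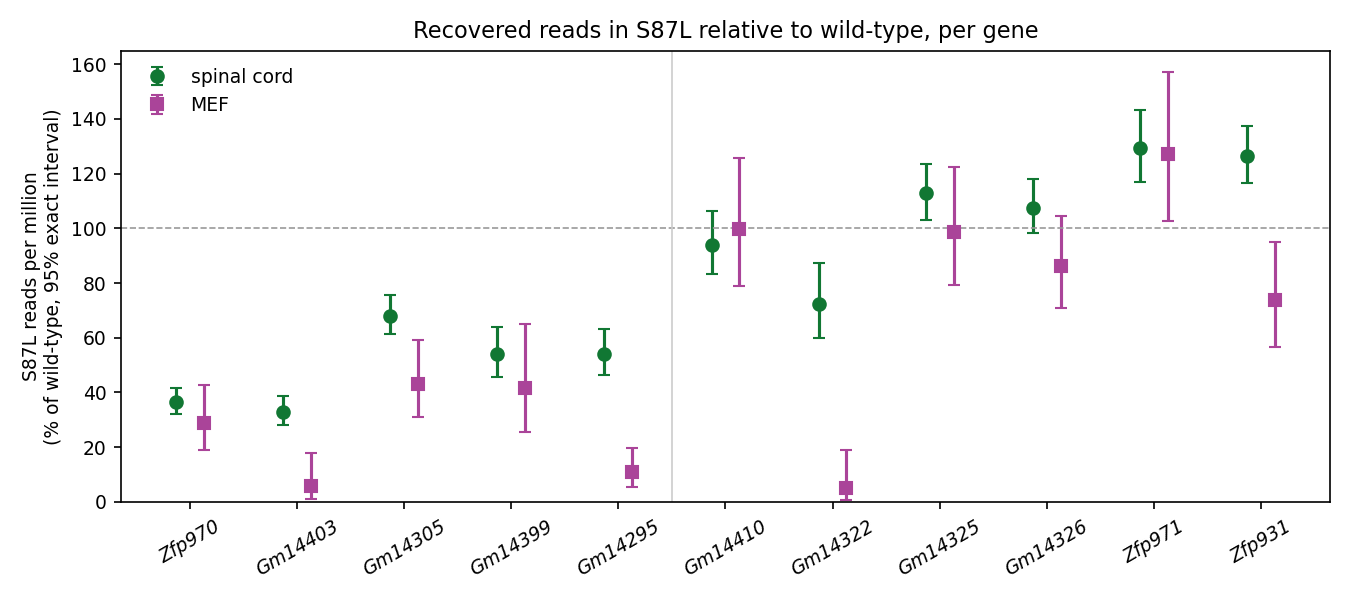
Reads in S87L libraries as a percentage of wild-type, relative to the read total implied by the FPKM values. Shown are the 5 genes and 6 genes of the region or its edge tested in both tissues. The 95% exact intervals cover counting error only. The 5 genes lie between 32.9% and 68.1% in cord and between 5.96% and 43.1% in MEF, and Gm14410 lies near 100%.

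Of the 3 wild-type cord libraries, replicate 1 was lowest for all 5 genes, and there their summed level was 22.4 FPKM against 27.3 and 27.9 in the other wild-type libraries. The sums in S87L cord were 11.8, 12.1 and 12.3 FPKM. Wild-type MEF libraries summed to 6.58, 7.03 and 7.75 FPKM, against 1.97 and 1.92 for S87L MEF. In S87L cord, replicates 1, 2 and 3 were lowest for 1, 2 and 2 of the genes, and in wild-type MEF for 2, 2 and 1. Replicate 1 of wild-type cord was also lowest for genes outside the 5, among them Gm14325 (9.43 against 10.7 and 10.7 FPKM) and Gm14412 (1.64 against 2.74 and 2.76), but not for Gm14322 or Gm14410.

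The contrast between the tissues did not enter the choice of the genes and could be tested, although it shares its wild-type libraries with the genotype comparisons. All 5 genes were lower in wild-type MEF than in wild-type cord with limma and Benjamini-Hochberg adjustment over 15948 genes, where 47.4% of all tested genes were called lower and 40.2% higher in MEF. Gm14403 differed most, by -2.10 (SE 0.17, adjusted p 1.44e-05), with every MEF library under every cord library. Zfp970 differed by -1.68 (SE 0.09, adjusted p 6.05e-07) and Gm14305 by -1.57 (SE 0.11, adjusted p 4.07e-06). Gm14399 differed by -1.26 (SE 0.10, adjusted p 9.36e-06). Gm14295 differed least, by -0.78 (SE 0.13, adjusted p 6.70e-04), and quantile normalization ended its call (-0.27, adjusted p 0.0980). The median over all tested genes was -0.12 as deposited and 0.15 after quantile normalization, so the difference of each gene is to be read against that shift. Of the 345 tested zinc finger genes with Zfp symbols outside the region, 190 were called lower and 107 higher in MEF, with a median of -0.30. In the region as a whole, 12 genes, the 5 among them, were called lower in MEF and 0 higher. The lower MEF level is thus not particular to the 5. Gm14325, outside the 5, was at 10.3 ± 0.757 FPKM in cord and 3.40 ± 0.121 in MEF (n = 3 each). Zfp971 (-1.20) and Zfp931 (-1.82), at the edge of the region, were also called lower in MEF.

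In wild-type MEF the order of levels differed from that in cord. Zfp970 (1.94 ± 0.209, SD, n = 3) and Gm14305 (1.84 ± 0.208) came first and did not differ beyond their spread. Gm14295 (1.21 ± 0.181) and Gm14403 (1.20 ± 0.356) were next and nearly equal, followed by Gm14399 (0.925 ± 0.157). In S87L MEF, with n = 2, Gm14305 at 0.801 ± 0.148 and Zfp970 at 0.564 ± 0.0042 stood above Gm14399 (0.379 ± 0.104), Gm14295 (0.132 ± 0.0464) and Gm14403 (0.0701 ± 0.0247). Gm14305 came first of the 5 in S87L libraries of both tissues.

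Of the other genes of the region, 8 were tested in cord and 4 in MEF. In cord limma called 2 of the 8 lower and 0 higher (1 higher at an unadjusted p under 0.05, 0 with voom on recovered reads), with a median of -0.30, beside 7.75% called lower among all genes. Gm14412 was at 2.38 ± 0.64 FPKM in wild-type and 0.993 ± 0.0531 in S87L cord (n = 3 each), a difference of -0.92 (SE 0.16, limma adjusted p 0.0130). That call was lost without replicate 1 of S87L cord (adjusted p 0.0550). Gm14418, at 1.59 ± 0.122 and 0.911 ± 0.168 FPKM, differed by -0.57 (SE 0.11, adjusted p 0.0160). Its call was lost without replicate 2 or 3 of wild-type cord or replicate 1 or 2 of S87L cord (adjusted p 0.0526, 0.0586, 0.0559 and 0.0620). Gm14412 and Gm14418 lie between Gm14295 and Zfp970 on the chromosome.

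Gm14322 and Gm14327, beyond Gm14403, did not pass the test in cord, at -0.39 (SE 0.15, limma adjusted p 0.132) and -0.46 (SE 0.12, adjusted p 0.0512). Gm14322 passed without replicate 3 of wild-type cord (0.0233), and Gm14327 passed without replicate 1 of wild-type cord (0.0479) and with a filter of at least 1 FPKM (0.0450). In MEF Gm14322 was the 1 called gene among the 4 others, at 1.23 ± 0.716 FPKM in wild-type (n = 3) and 0.0636 ± 0.00824 in S87L libraries (n = 2). Its difference was -1.54 (SE 0.32, adjusted p 0.0315), beside 6.32% of all genes called lower. The call rests on 2 reads against 65, of which 37 were in replicate 3 of wild-type MEF, and without that library the gene fell under the filter. It was lost without replicate 2 of wild-type MEF (adjusted p 0.0743) and without replicate 1 (0.135) or 2 (0.101) of S87L MEF. It was also lost with no filter (0.0792) and with a pseudocount of 1 (0.0560). Gm14322 was thus close to Gm14403 in MEF by value, with a larger standard error. Gm14418 fell under the filter in MEF, at 0.483 ± 0.128 FPKM in wild-type (n = 3). Its S87L libraries had 1 read against 49, which scaled to the read total was 3.36% of wild-type (0.0834% to 19.6%). With no filter Gm14418 was called lower in MEF (-0.92, limma adjusted p 0.0465).

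Gm14410, Gm14325, Gm14326 and Gm14411, of the same cluster, were not called in any tissue where they were tested. Gm14410 was at -0.07 (SE 0.10, limma adjusted p 0.689) in cord and -0.03 (SE 0.12, adjusted p 0.902) in MEF. Its S87L reads, scaled to the read total, were 94.0% (83.2% to 106%) and 99.7% (78.9% to 126%) of wild-type. Gm14325, the most abundant gene of the region, was at 0.16 (SE 0.06, adjusted p 0.118) in cord and -0.02 (SE 0.06, adjusted p 0.869) in MEF. On that scale its S87L reads were 113% (103% to 124%) of wild-type in cord and 98.6% (79.2% to 122%) in MEF. In cord its S87L libraries (11.4 to 11.9 FPKM) all lay above the wild-type ones (9.43 to 10.7). Gm14326 was at 0.09 (SE 0.07, adjusted p 0.459) in cord and -0.17 (SE 0.10, adjusted p 0.329) in MEF. The pseudogene Gm14411 was tested in cord alone, at -0.22 (SE 0.26, adjusted p 0.636). None of these differences passed the test, which does not show that the levels were equal. Gm14325 holds the 59-base run printed above, as do Zfp970, Gm14403, Gm14305 and Gm14295.

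**Figure D3:**
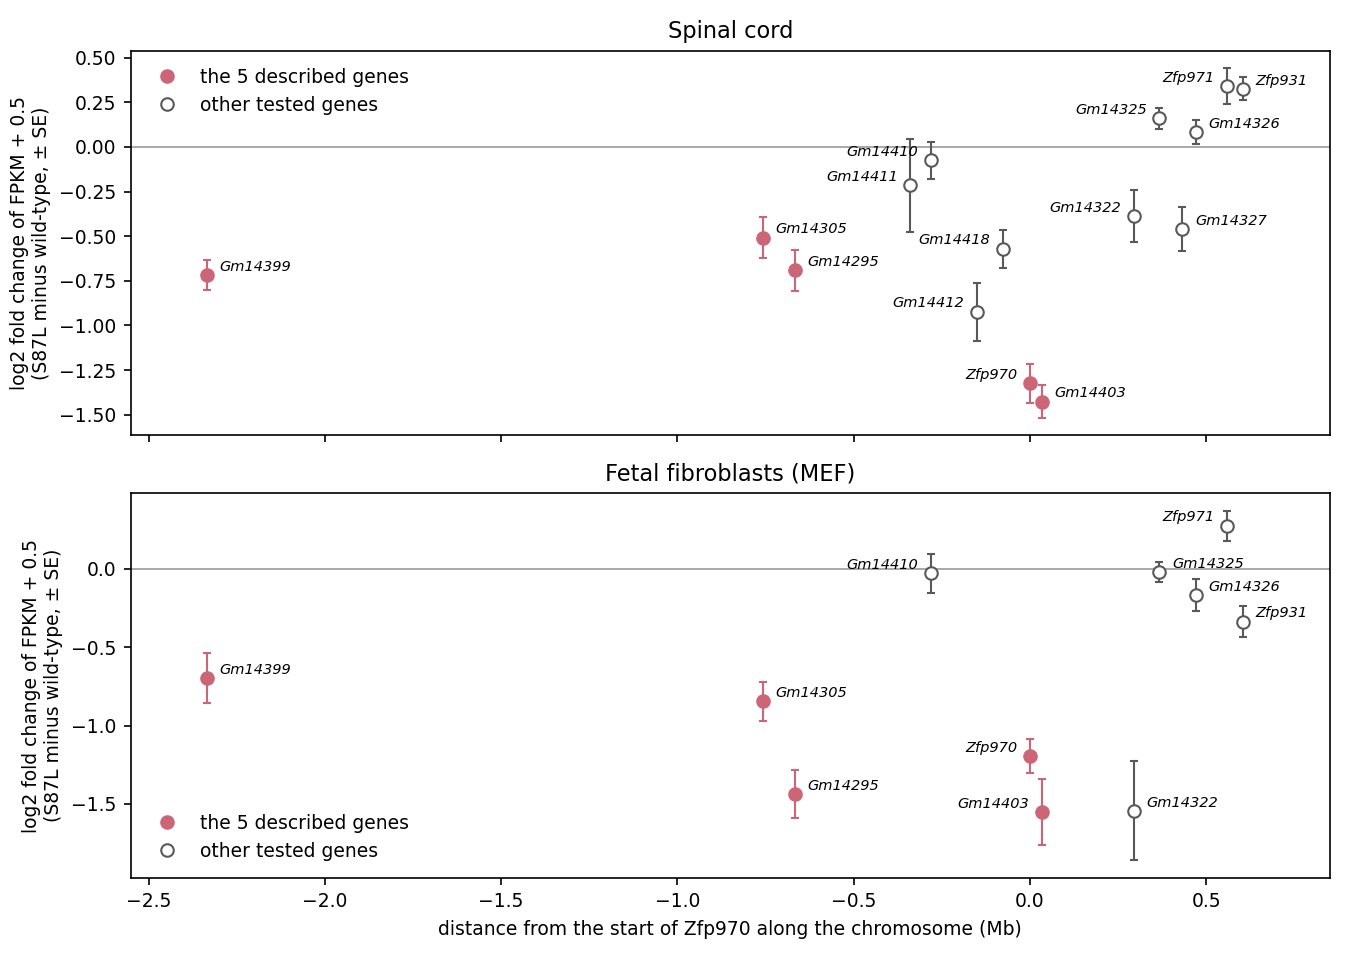
Log2 fold change of FPKM + 0.5, S87L minus wild-type, with standard errors, against the distance from the start of Zfp970 in Mb, for tested genes of the region and its neighbours Zfp971 and Zfp931, in cord and MEF. Filled points are the 5 described genes, lowest at Gm14403 (-1.43 in cord, -1.55 in MEF), and the genes beyond them include Gm14325 at 0.16 in cord.

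Just beyond the region, Zfp971 and Zfp931 carry no negative difference in cord. Zfp971 was at 0.34 (SE 0.10, limma adjusted p 0.0646) in cord and 0.27 (SE 0.09, adjusted p 0.120) in MEF. Zfp931 was higher in S87L cord, at 10.9 ± 0.957 against 8.59 ± 0.267 FPKM (n = 3 each), by 0.33 (SE 0.06, adjusted p 0.0197). That call was lost without replicate 3 of wild-type cord (adjusted p 0.0681). In MEF Zfp931 was at -0.34 (SE 0.10, adjusted p 0.0735). Both genes are named for their place beside the region and were chosen after their values were seen.

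Zinc finger genes with Zfp symbols outside the region give the comparison with the wider family. In cord 21 of 346 tested were called lower and 8 higher, with a median of -0.02, and in MEF 14 of 321 were called lower and 10 higher, with a median of -0.02. These shares are below those over all genes (7.75% lower and 5.18% higher in cord, 6.32% and 4.9% in MEF).

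Most of the region could not be tested. In cord 71 of the 84 genes fell under the filter of a mean of 0.5 FPKM, in MEF 75 did, and 23 were at 0 in all 11 libraries. Reads from stretches that are identical in several genes cannot be assigned to 1 of them by sequence, and the counting rule for reads that match several genes was not given in the sources used here. Of the 100-base stretches of a gene's transcripts, the share also found in transcripts of other genes was 4.95% in Gm14403 and 17.4% in Zfp970. It was 43.5% in Gm14399, 52.8% in Gm14295 and 69.2% in Gm14305. Levels of Gm14399, Gm14295 and Gm14305 are therefore uncertain to the extent that such reads were dropped or given to another copy. All recovered values of the 5 genes were whole reads, and Gm14305 also lies inside Zfp973 for 10.8 kb. Gm14410, near wild-type level, shares 75.2%, and Gm14412 shares 2.77%. Among the 71 genes not tested in cord the median share was 86.4% and 30 genes shared at least 90%, while among the 13 tested genes the median was 52.8% and 0 reached 90%.

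**Figure D4:**
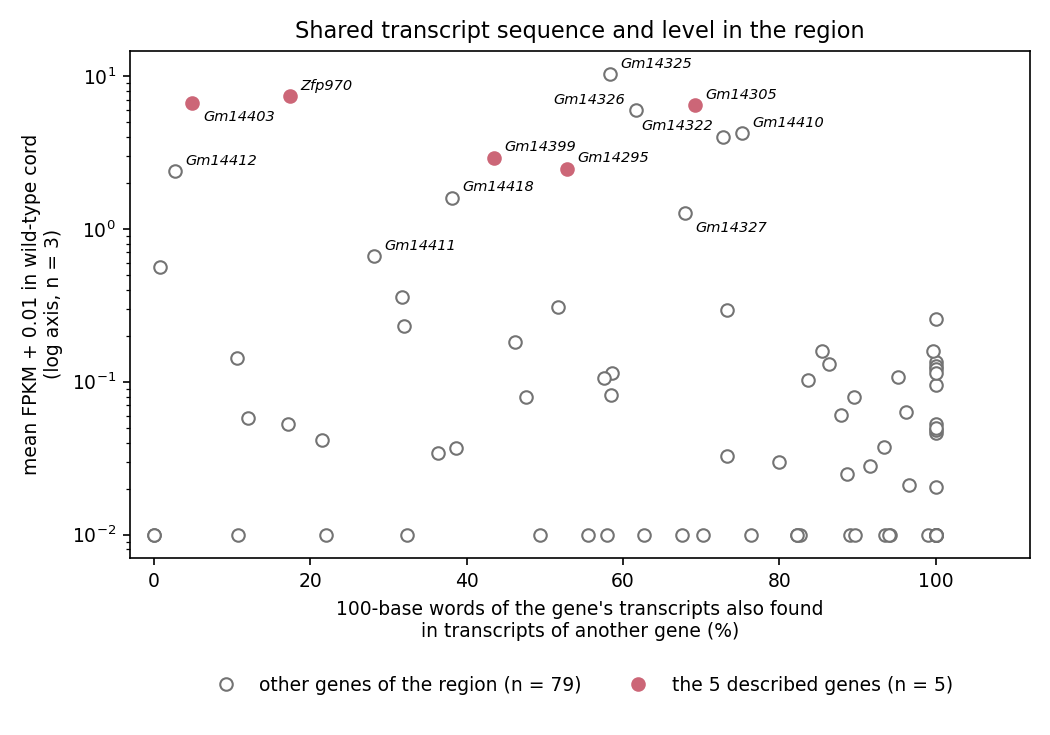
Share of 100-base transcript words that also occur in another gene (percent) against mean FPKM + 0.01 in wild-type cord (log axis, n = 3) for the 84 genes of the region. The 5 described genes lie between 4.95% and 69.2%, and the 20 genes at 100% all have low levels.

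The genes through which zinc finger proteins and HUSH silence chromatin were read from 3 lists. Of the KRAB corepressor and H3K9 methylation list, 2 of 17 tested genes fell in cord, with a median of -0.02. These were Ehmt1, an H3K9 methyltransferase (-0.29, limma adjusted p 0.0220), and Chd4, a remodelling ATPase (-0.20, adjusted p 0.0173). In MEF limma called 0 of 17, with 2 at an unadjusted p under 0.05, both higher, and 2 called higher with voom. The corepressor Trim28 was at 0.03 in cord (adjusted p 0.712) and -0.09 in MEF (0.357), and Setdb1 at -0.12 (0.230) and -0.09 (0.343). Of the HUSH and Morc list, Morc2a itself was lower, from 5.66 ± 0.0479 to 4.86 ± 0.132 FPKM in cord (-0.20, adjusted p 0.0269) and from 18.6 ± 0.251 to 16.4 ± 0.00710 in MEF (-0.17, adjusted p 0.0421). It was the 1 called gene of 8 in cord, and in MEF Morc3 rose beside it (0.27, adjusted p 0.0401), with 7 tested. Of the DNA methylation list, 2 of 9 fell in cord, Dnmt3a (-0.25, adjusted p 0.0180) and Tet2 (-0.36, adjusted p 0.0212). In MEF 3 of 11 fell, Dnmt1 (-0.19, adjusted p 0.0290), Dnmt3a (-0.37, adjusted p 0.0105) and Uhrf1 (-0.21, adjusted p 0.0312). In MEF that list went both ways, with 2 higher and 5 lower both at an unadjusted p under 0.05 and with voom. Over all genes, 7.75% were called lower in cord, and 6.32% lower and 4.9% higher in MEF.

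The 5 genes outside the region with the profile most like the mean of the 5 zinc finger genes, by Pearson r over the 11 libraries after centring each tissue, were Adgrl3 (0.982), Copg1 (0.981), Insig1 (0.980), Atp2b4 (0.972) and Appl2 (0.971). The ranking covered 9924 genes, 114 of which reached 0.9. Their differences were small beside those of the zinc finger genes, from -0.11 for Copg1 to -0.29 for Adgrl3 in cord and from -0.11 to -0.33 in MEF. The 5 zinc finger genes were chosen for lower levels in S87L, so other genes lower in S87L rank high here. Libraries of the same group also share tissue and genotype, so the r values describe likeness only.

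Marker genes of several cell types moved with genotype in the same cord libraries, and their part in these results was not tested. Over all genes, 5.18% were called higher and 7.75% lower in cord, and 6.32% lower in MEF. Of the skeletal muscle list 11 of 12 tested genes rose, with a median of 1.68 and summed levels of 142 to 156 FPKM in wild-type and 213 to 220 in S87L cord. Without Pvalb, which did not pass the test and makes up most of the wild-type sum, the other 11 summed to 17.2 to 22.2 and 81.2 to 87.7. Of the meninges and fibroblast list 6 of 10 rose and 1 fell, with a median of 0.51, led by Dcn (1.22), Ogn (1.14) and Col1a1 (1.09). Its sums were 211 to 216 and 220.1 to 222 FPKM. Thy1, the 1 that fell, makes up most of these sums, at 184 ± 3.09 FPKM in wild-type and 168 ± 0.992 in S87L cord (n = 3 each). The sums therefore hide most of the rise of the other genes. Red blood cell genes (3 of 5 higher) summed to 336 to 371 and 409 to 447 FPKM. Schwann cell genes (3 of 7 higher) summed to 131 to 136 and 148 to 155, and microglial genes (3 of 6 higher) to 146 to 147 and 174.9 to 184. The neuron list summed to 1953 to 1961 and 1885 to 1942, with 2 of 10 lower. Other cord lists went both ways. Of 7 oligodendrocyte genes 1 was higher and 1 lower, and of 6 astrocyte genes 2 were higher and 1 lower. Of 8 endothelium and pericyte genes 1 was higher and 1 lower. In MEF the fibroblast list summed to 4089 to 4115 in wild-type and 3557 to 3825 in S87L libraries, with 5 of 12 lower. Microglial genes were also present in MEF, at sums of 76.7 to 77.5 and 65.5 to 70.3 FPKM, with 1 of 6 lower. The MEF neuron list went the other way, at 26.4 to 28.1 and 32.4 to 34.7, with 1 of 2 tested genes higher. The neuronal marker Snap25 was at 0 to 0.0324 FPKM in MEF. Depth was 15.3 to 23.5 M recovered reads in cord and 12.1 to 15.1 M in MEF.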

How the data were processed

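The 5 genes and the gene lists were chosen with earlier results of these data known. The authors deposited 1 table of FPKM values covering 55487 Ensembl identifiers. HTSeq 0.11.3, Picard 2.25.5, HISAT2 2.2.1 and Trimmomatic 0.39 are named in the submitters' processing notes, as is GRCm38, and the library kit was directional per the labels. Settings for strand and for multiply mapped reads were not given in the sources used here. Symbols and coordinates came from the GENCODE vM21 annotation (55141 identifiers found, 346 not). Library titles gave the groups.

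Each comparison was fitted with limma 3.58.1 in R 4.3.3 (trend, robust) on log2(FPKM + 0.5), keeping genes that averaged at least 0.5 FPKM in its libraries. A call is an adjusted p (Benjamini-Hochberg, all tested genes) under 0.05. SE is moderated. The fits were tested on simulated data with 200 genes changed by 1 log2 unit. Of these, 90.5% were called in cord, 83.5% in MEF and 85.5% in the tissue contrast. The share of calls that were false was 1.63%, 7.73% and 5%, so in MEF it exceeded the threshold of 0.05. Reads were recovered from the FPKM steps, with 98.5% to 98.6% of values per library within 0.05 of a whole number. Transcript words of 100 bases shared with another gene were counted.

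The named genes were the 5 genes, then among other tested region genes the 3 largest rises, 3 largest falls and 3 highest levels per tissue, called genes of the chromatin lists with Morc2a, Trim28 and Setdb1, and the 5 protein-coding genes outside the region most like the mean profile. Alternatives were other pseudocounts, filters, scalings, a replicate block and leaving out each library.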

Additional observations from a re-analysis of the deposited data

Results flagged for a closer look

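The genotype difference of Zfp931, the zinc finger gene just beyond the region, differed between the tissues. Its difference in MEF minus that in cord was -0.66 (SE 0.11) on the log2(FPKM + 0.5) scale, with a limma interaction adjusted p of 0.00220 over 12381 genes. Zfp931 was higher in S87L cord (10.9 ± 0.957 against 8.59 ± 0.267 FPKM, n = 3 each) and at 1.55 ± 0.224 (n = 2) against 2.08 ± 0.0389 FPKM (n = 3) in S87L and wild-type MEF. In MEF it did not pass the test. It was named, and the interaction fitted, after its values were seen. The other tested neighbours outside the 5 genes, Gm14322 (-1.16, adjusted p 0.0682), Gm14325 (-0.18, 0.176), Gm14326 (-0.25, 0.185), Gm14410 (0.04, 0.896) and Zfp971 (-0.07, 0.802), did not pass that test.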

How the results depend on the processing

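None of the 5 genes changed direction in any comparison under the alternatives run. Calls over all genes in cord were 2020, and 836 to 1635 with 1 library left out. They moved by over 1.5 times without replicate 2 (1163) or 3 (1043) of wild-type or replicate 1 (905), 2 (836) or 3 (1211) of S87L cord. In MEF calls were 1545, and 565 to 1752 with 1 library left out, moving without replicate 1 (617), 2 (585) or 3 (565) of wild-type or replicate 1 of S87L (857). With no filter they were 790, and with voom on recovered reads, chosen after seeing the data, 2777. Median ratio scaling turned the cord split from 809 higher and 1211 lower to 1229 higher and 874 lower. The cause was not tested.

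Region genes called lower were 7 in cord (4 to 8 with 1 library left out, 4 without replicate 1 of S87L) and 6 in MEF (3 to 5, 3 without replicate 1 of S87L). In MEF a filter of at least 1 FPKM tested 2 of the 5 genes and gave 2 region calls. Extending the region to take in Zfp971 and Zfp931, chosen after seeing the data, added 1 higher call in cord, Zfp931. In cord Gm14305 was not called with no filter, with quantile normalization, or without replicate 2 or 3 of wild-type or 1 or 2 of S87L. In MEF Gm14399 was not called with no filter, with quantile normalization or with any 1 MEF library left out, and Gm14305 was not called without replicate 1 of S87L. MEF values depend on scale: Gm14403 was at -1.55, and at -3.66 with voom.

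Whether the replicate numbers pair the libraries could not be decided. Deviations of same-numbered libraries correlated at 0.229, -0.205 and 0.299 in cord, where differently numbered ones ranged from -0.429 to 0.309. In MEF the same-numbered values were -0.159 and -0.145. With 2 S87L MEF libraries the deviations mirror each other by construction, so the MEF values tell little about pairing. With the number as a replicate block, calls were 1661 in cord and 199 in MEF, and 2 region genes, both among the 5, were called lower in MEF. The block also ended the MEF call of Gm14322 (adjusted p 0.0624) and gave a cord call of Gm14327 (0.0444). A count-model test listed beforehand was not run, because the deposited unit is FPKM.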
